A study of Mus musculus with 12 samples.

Results

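The effect of compound C1 on the liver transcriptome was read from 6 of the 12 libraries of the series. They came from 3 livers of high-fat-fed mice (HFD) and 3 livers of mice given C1 on top of that diet (HFD+C1), chosen by their labels and counted across all genes. All were C57BL/6N mice fed for 12 weeks a diet with 60% of its energy from fat. C1 was injected intraperitoneally at 5 mg/kg per day for 12 weeks. The series title describes C1 as an inhibitor of CYP4A, and the labels give no structure, no sex or age of the mice, and no vehicle for the HFD group. The labels call the libraries biological replicates. Another group, HFD+C2, received another compound at the same dose. A further group (NCD, replicates 1 to 3) was chow-fed for 12 weeks and given no high-fat diet. Apart from a fit of all 12 libraries, these groups are used only where their values stand beside those of C1.

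CYP4A enzymes are cytochrome P450 proteins of the endoplasmic reticulum that add a hydroxyl group to the far end of fatty acids, and their genes are classical targets of the lipid-sensing receptor PPARA. The liver is made up mainly of hepatocytes, which carry out this oxidation together with drug metabolism, bile acid and cholesterol synthesis and the secretion of plasma proteins. Kupffer cells, the resident macrophages of the liver, lie in its sinusoids and clear particles and complement-coated material from the blood.

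Reads counted in genes ranged from 25198905 to 32124248 in HFD and from 18858230 to 26493335 in HFD+C1, so that 3 counts corresponded to 0.0934 to 0.159 CPM (read counts scaled to library size). Summed CPM of the 9 hepatocyte markers tested ranged from 97670 to 115550 in HFD and from 110817 to 121200 in HFD+C1, whereas markers of skeletal muscle summed to at most 0.448 CPM and 10 of 11 pancreatic acinar markers had too few reads to be tested, the exception being Cela1 at 20.4 to 49.8 CPM. Of 9 white adipocyte markers 5 were tested, among them Cfd at 10.2 to 27 CPM and Fabp4 at 16.2 to 23.1 CPM, and the adipose hormone gene Lep was at no more than 0.224 CPM. The 4 Y-linked genes were detected in each of the 6 libraries, at a summed 64.0 to 84.2 CPM, and Xist with Tsix at no more than 0.179 CPM. Across genes, the correlation of log2 CPM was 0.985 and 0.986 between HFD replicate 2 and its group mates, 0.992 between it and HFD+C1 replicate 3, and 0.994 between HFD replicates 1 and 3. HFD replicate 2 therefore stood apart from its own group, but it was not alone in this. The correlation between HFD+C1 replicates 1 and 2 was also 0.986. Of 10364 genes averaging 50 counts or more, 86 in HFD replicate 2 lay over 1 log2 unit from the mean of its group mates. This number was 73 in HFD+C1 replicate 1 and 78 in HFD+C1 replicate 2, and 18, 18 and 23 in the other libraries. The counts and calls that move most without HFD replicate 2 are given beside the results. Reads not assigned to a gene made up 31.9% to 32.9% of HFD libraries and 27.3% to 28.7% of HFD+C1 libraries. The groups did not overlap in this share (exact permutation test, two-sided p = 0.1, the smallest that 3 against 3 libraries allow), and its part in the results was not tested.

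The following sequences belong to genes whose values carry the results. For Gadd45g, Cyp3a11 and Cish they are the 250 bases before the RefSeq start site (GRCm38.p6), read 5′ to 3′ along the gene's strand, shown because a short motif was found in each, printed in capitals.
Gadd45g, chr13:51846425-51846674, plus strand: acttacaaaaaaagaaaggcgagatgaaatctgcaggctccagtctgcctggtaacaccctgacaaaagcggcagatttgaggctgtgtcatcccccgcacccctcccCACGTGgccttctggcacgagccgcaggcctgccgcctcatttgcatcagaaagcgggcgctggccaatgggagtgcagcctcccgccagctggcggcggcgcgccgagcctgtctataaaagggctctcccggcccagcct
Cyp3a11, chr5:145879855-145880104, minus strand: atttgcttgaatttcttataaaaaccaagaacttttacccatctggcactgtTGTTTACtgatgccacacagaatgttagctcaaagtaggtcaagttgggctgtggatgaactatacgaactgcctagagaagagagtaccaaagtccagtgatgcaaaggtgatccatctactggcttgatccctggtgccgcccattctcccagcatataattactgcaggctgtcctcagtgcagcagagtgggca
Cish, chr9:107296409-107296658, plus strand: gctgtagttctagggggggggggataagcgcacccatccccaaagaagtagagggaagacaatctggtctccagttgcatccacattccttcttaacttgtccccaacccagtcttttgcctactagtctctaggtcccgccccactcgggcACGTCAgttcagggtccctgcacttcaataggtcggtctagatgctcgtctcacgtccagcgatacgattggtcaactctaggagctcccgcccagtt
mmu-miR-6236, chr9:110281353-110281371, plus strand, mature form with its seed (bases 2 to 8) in capitals: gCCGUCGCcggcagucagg

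Of 13 genes looked up, 8 had a promoter entry. Their windows were searched on both strands for 6 motifs: the STAT5 motif TTCNNNGAA, the cyclic AMP response core TGACGT, the E-box CACGTG, the forkhead motif TGTTTAC, the sterol element TCACNCCAC and the PU.1 motif GAGGAAGT. The E-box and TGACGT share the letters ACGT, and no window printed here held both as a match. The E-box in Gadd45g began 142 bases before the start and is found in 6.02% of the 32851 RefSeq promoter windows of the same length. The forkhead match in Cyp3a11 began 198 bases before the start (3.17% of windows). The match in Cish, the reverse complement of TGACGT, began 98 bases before it (6.47% of windows). The STAT5 motif, present in 7.02% of windows, was not among the letters of the Cish window. The sterol element and PU.1 motifs, in 1.05% and 2.44% of windows, had no match in the 8 genes' windows, Clec4f and Cd5l included. A match describes these letters and is no evidence of binding.

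In HFD-fed livers given C1, 7 genes passed the test and all were lower: Phlda1, Gadd45g, Mir6236, Gm15564, Adgrv1, Cyp3a11 and Serpina12. This is 0.0524% of the 13358 genes tested with edgeR's quasi-likelihood test at a Benjamini-Hochberg adjusted p under 0.05. No gene passed in the other direction. At an unadjusted p under 0.05, 436 genes (3.26%) were higher and 599 (4.48%) lower, and the median log2 change of all tested genes was 0.01. Groups did not overlap for 849 genes in the higher direction (6.36%) and 808 in the lower direction (6.05%). These shares are the background for the gene lists below. The number of calls rested on single libraries. It was 102, 36 of them higher, without HFD replicate 2, and 2 when HFD replicate 1 was dropped, 3 when HFD replicate 3 was, and 2 when HFD+C1 replicate 1 was.

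**Figure D1:**
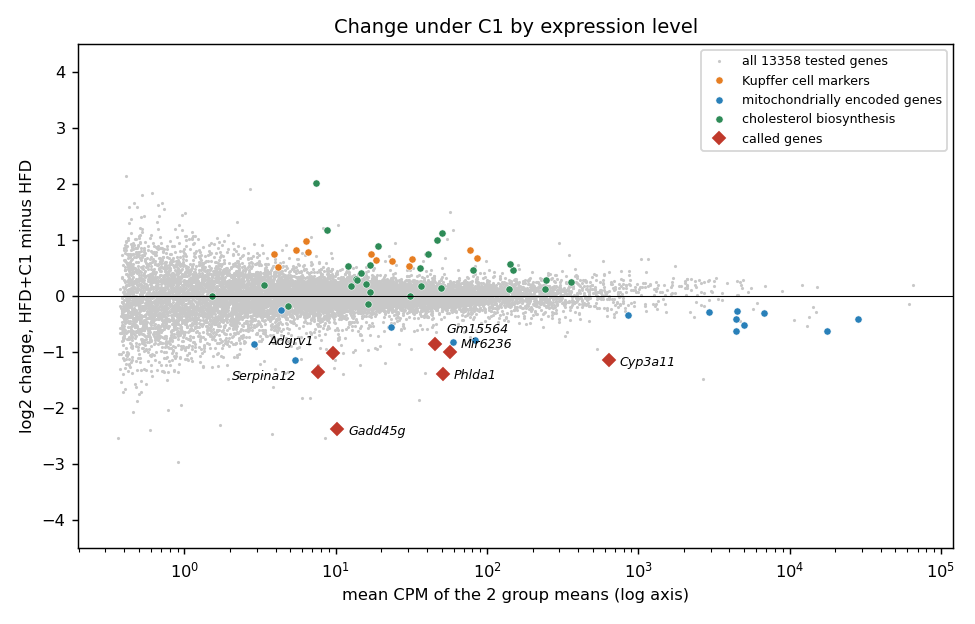
Each point is 1 of 13358 tested genes, with its mean CPM on a log horizontal axis and its log2 change (HFD+C1 minus HFD) on the vertical axis; diamonds are the 7 called genes and coloured points 3 gene lists. Called genes lie between -0.85 and -2.38, Kupffer cell markers all lie above 0 and mitochondrially encoded genes all lie below it.

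Phlda1 and Gadd45g, a pair of stress-induced genes, had the smallest adjusted p. Both fell by amounts well beyond the spread between libraries within the HFD and HFD+C1 groups. Phlda1 (chr10:111506286-111508649, GRCm38.p6), which encodes a pleckstrin-homology-like protein linked to apoptosis and growth factor signalling, was at 71.1, 83.9 and 67.0 CPM in HFD and at 26.5, 29.1 and 29.3 CPM in HFD+C1. The 3 treated libraries lay within 3 CPM of each other and below all controls. Its mean fell from 74.0 ± 8.78 to 28.3 ± 1.54 CPM (SD, n = 3), or -1.39 ± 0.12 (SE) on the log2 scale (adjusted p = 0.000580, edgeR). Gadd45g (chr13:51846675-51848475), a growth arrest and DNA damage inducible gene whose product binds stress kinase regulators, was at 20.7, 11.0 and 19.9 CPM in HFD. In HFD+C1 it was at 3.06, 3.63 and 3.21 CPM, or -2.38 ± 0.23 (SE) on the log2 scale (adjusted p = 0.000753, edgeR). HFD replicate 2 was the lowest control and still stood about 3-fold above the highest treated library. Both genes passed in each of the 6 fits that left out 1 library and in 9 of 10 other settings, but not in the fit of all 12 libraries. Chow-fed livers varied several-fold in both genes. Scaled over all 12 libraries, they held 50.8, 131 and 28.8 CPM of Phlda1 and 8.36, 53.7 and 7.13 CPM of Gadd45g. Reads in genes numbered 9858279, 4281210 and 23147418 in these chow-fed libraries. Of all their reads, 58.15%, 35.7% and 40.7% were not assigned to a gene. Skeletal muscle markers summed to 1.21, 0.423 and 134 CPM in them. The part of this spread, or of library quality, in that fit was not tested.

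The list of growth arrest, stress and pleckstrin-homology genes, which holds both of them, had 20 tested members. Of these, 2 passed, 8 had an unadjusted p under 0.05 in the lower direction and none in the higher, and 18 were below 0, with a median log2 change of -0.22. Because earlier results on Phlda1 and Gadd45g were known when the list was written, it is no independent evidence of direction. Cdkn1a, the cell cycle inhibitor p21, was at 16.4, 10.1 and 15.5 CPM in HFD and at 9.66, 8.38 and 9.89 CPM in HFD+C1 (edgeR adjusted p = 0.402). Ddit4l, an inhibitor of mTOR signalling, was at 2.64, 1.56 and 2.85 against 0.858, 1.03 and 1.09 CPM (edgeR adjusted p = 0.241). Groups did not overlap for either gene. Of 30 immediate-early genes, which respond to stimuli within minutes, none passed, 7 had an unadjusted p under 0.05 in the lower direction and 1 in the higher, and the median was -0.20. The count of 7 became 3 when HFD+C1 replicate 3 was dropped and 4 when any of the HFD libraries was. The transcription factor gene Jun was at 16.9, 27 and 14.5 CPM in HFD and 13.4, 12.5 and 13.5 CPM in HFD+C1 (edgeR adjusted p = 0.461). Its highest control was HFD replicate 2.

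**Figure D2:**
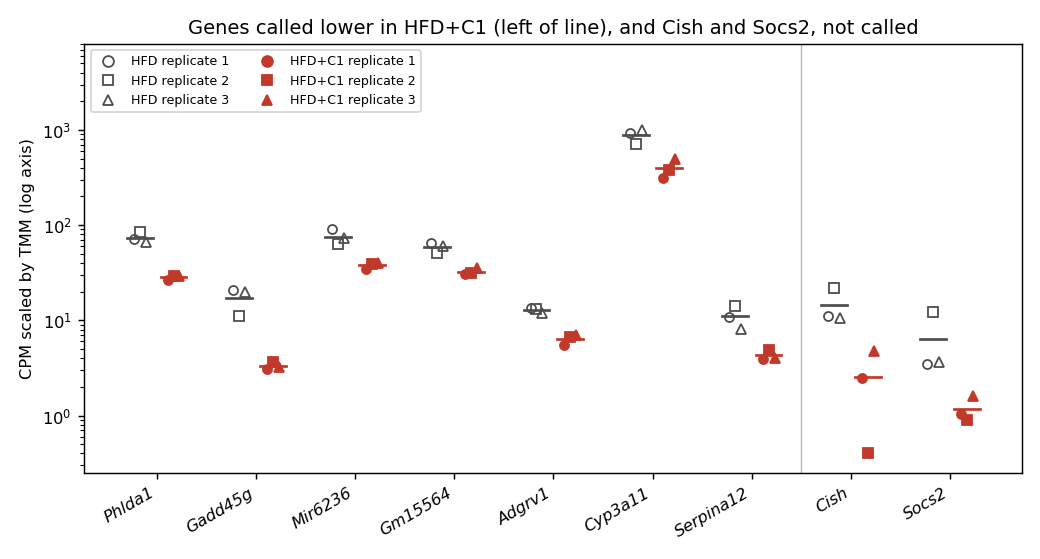
CPM on a log axis in each library for the 7 called genes and for Cish and Socs2, which did not pass; open symbols are HFD and filled symbols HFD+C1, with the replicate number given by shape and the group mean by a bar. Groups do not overlap for any of the 9 genes, and HFD replicate 2 is the highest control for Cish and Socs2 and the lowest for Gadd45g.

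Cyp3a11 (chr5:145854607-145879854), the main CYP3A drug-metabolising enzyme of mouse liver and a target of the xenobiotic receptor PXR, was at 929, 709 and 993 CPM in HFD and at 311, 379 and 496 CPM in HFD+C1. All treated libraries lay below all controls, or -1.15 ± 0.17 (SE) on the log2 scale (adjusted p = 0.0377, edgeR). Of 11 tested genes of the Cyp3a and Cyp2b families and their receptors, it alone passed. Unadjusted p was under 0.05 for 3 members in the lower direction and 1 in the higher, and the median was -0.05. Cyp2b13 was at 18.1, 16.9 and 16.9 CPM in HFD and at 3.24, 9.06 and 13.9 CPM in HFD+C1 (edgeR adjusted p = 0.437), so its treated libraries differed among themselves by over 4-fold. Cyp3a13 was at 82.3, 100.1 and 101.4 CPM in HFD and 141, 123 and 116 CPM in HFD+C1 (edgeR adjusted p = 0.392). Of 28 other xenobiotic P450 genes none passed, 3 were higher and 1 lower at an unadjusted p under 0.05, and the median was 0.07. Leaving out HFD replicate 2 gave 7 higher and 4 lower, with 3 calls, and leaving out HFD replicate 1 gave none higher and 1 lower. Genes within the Cyp3a family, and within the Cyp2b family, are close paralogs, and how reads were divided among the members of a family is not stated.

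Serpina12 (chr12:104028769-104044443), which encodes the serpin adipokine vaspin, was at 10.9, 14.2 and 8.02 CPM in HFD and at 3.95, 4.93 and 3.99 CPM in HFD+C1, or -1.36 ± 0.21 (SE) on the log2 scale (adjusted p = 0.0377, edgeR). Adgrv1 (chr13:81095068-81633391), an adhesion G protein-coupled receptor known for its role in hearing, was at 13.4, 13.2 and 11.9 against 5.52, 6.68 and 6.99 CPM (-1.01 ± 0.15 on the log2 scale, SE; edgeR adjusted p = 0.0351). Groups did not overlap for either gene, and the controls of Adgrv1 were the closest together. Serpina12 and Cyp3a11 passed in 2 of the 6 fits that left out 1 library, and Adgrv1, Mir6236 and Gm15564 in 1 each.

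The remaining 2 calls were of non-coding genes. Mir6236 (chr9:110281287-110281409), annotated as a microRNA hairpin, was at 90.5, 63.5 and 73.7 CPM in HFD and 34.4, 39.5 and 40.2 CPM in HFD+C1 (-1.0 ± 0.14 on the log2 scale, SE; edgeR adjusted p = 0.0351). These are reads of a total RNA library counted over the hairpin, so they do not measure the mature miRNA printed above. Gm15564 (chr16:35966751-35983329), a long non-coding RNA, was at 64.7, 50.6 and 60.1 against 30.4, 31.7 and 35.1 CPM (-0.85 ± 0.13 on the log2 scale, SE; edgeR adjusted p = 0.0351). For both, HFD replicate 2 was the lowest control, as it was for the 18S ribosomal RNA gene Rn18s-rs5. That gene took 1.57%, 1.00% and 1.95% of reads in HFD and 1.05%, 1.17% and 0.976% in HFD+C1, and its groups overlapped. With ribosomal RNA, mitochondrial and both of these genes left out before scaling, 2 genes passed, Phlda1 and Gadd45g. The part of ribosomal RNA content in these 2 calls was not tested.

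Apart from the calls, the lower genes with the smallest p and groups that did not overlap were Cox5b-ps, Gm11478, the forkhead gene Foxq1, mitochondrial ATP6 with its annotated pseudogene copy Gm10925, and the cytokine inhibitor Socs2. Foxq1 (chr13:31558170-31560976) was at 7.46, 6.7 and 8.02 CPM in HFD and 2.87, 4.17 and 2.69 CPM in HFD+C1 (edgeR adjusted p = 0.0723). Apoa4, which encodes an apolipoprotein of chylomicrons that fatty liver makes in large amounts, was at 5194, 1877 and 4734 CPM in HFD and 1236, 1276 and 1705 CPM in HFD+C1 (edgeR adjusted p = 0.106). Its controls spanned more than a 2-fold range, with HFD replicate 2 close to the treated libraries. Cox5b-ps, Foxq1, Gm11478, ATP6, Socs2 and Apoa4 each passed in DESeq2, without a filter on low counts and without HFD replicate 2. The stress gene Chac1, a glutathione-degrading enzyme, was at 3.48, 3.87 and 2.57 against 0.970, 1.26 and 1.71 CPM (edgeR adjusted p = 0.136). Over the 6 libraries, the genes whose log2 CPM was most like that of Phlda1 among 10363 compared were Rpl36a-ps3 (Pearson r = 0.994), Adgrv1 (0.985), Pcp4l1 (0.984), Ranbp3 (0.970) and Lrat (0.970). With 2 groups in so few libraries, such values mainly describe the group difference.

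None of the 14 tested Cyp4 genes, of 20 listed, passed, although these encode the enzyme family that the series title names as the target. The list had a median log2 change of 0.20, with 10 members above 0 and 1 at an unadjusted p under 0.05. Leaving out HFD replicate 2, 12 were above 0, 5 were at that level, all higher, and none passed. The gene at that level with all libraries, Cyp4a31, was at 1.76, 1.80 and 1.12 CPM in HFD and 2.01, 3.72 and 2.18 CPM in HFD+C1 (edgeR adjusted p = 0.567). The abundant Cyp4a10 was at 264, 243 and 260 CPM in HFD and at 275, 258 and 281 CPM in HFD+C1, within 1.2-fold in all libraries. Cyp4a14, the member most responsive to PPARA, was at 257, 164 and 252 against 361, 227 and 293 CPM (0.39 ± 0.19 on the log2 scale, SE; edgeR adjusted p = 0.678). Its groups overlapped. Cyp4a32 was at 20.3, 19.8 and 18.7 CPM in HFD and 19.2, 28.7 and 20.05 CPM in HFD+C1.

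The male-predominant Cyp4a12a was at 46.1, 133 and 45.4 CPM in HFD and 54.5, 91.9 and 39.9 CPM in HFD+C1, so that replicate 2 was high in either group. Its log2 change was -0.27, and 0.44 without HFD replicate 2. Cyp4a12b was at 3.52, 16.7 and 4.01 against 6.45, 11.2 and 4.82 CPM (log2 change -0.11, and 1.00 without that library). Among the other subfamilies Cyp4b1, Cyp4f14 and Cyp4v3 had log2 changes of 0.34, 0.27 and 0.19. The remaining Cyp4f genes, Cyp4f13, Cyp4f15, Cyp4f16, Cyp4f17 and Cyp4f39, lay between -0.07 and 0.34, and each crossed 0 when some library was left out. Cyp4a genes are near-identical copies, so the values of single members are uncertain. These are transcript levels and do not report on enzyme activity.

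Of 42 tested genes of fatty acid oxidation, ketogenesis and PPARA targets, none passed, 1 was higher and 2 lower at an unadjusted p under 0.05, and the median was 0.06. Fabp1, the liver fatty acid binding protein, was at 13607, 10245 and 12839 CPM in HFD and 9184, 9552 and 8477 CPM in HFD+C1 (edgeR adjusted p = 0.417). The groups did not overlap. Fgf21, a fasting hormone of the liver, was at 4.49, 4.25 and 4.25 CPM in HFD and 9.73, 4.71 and 5.91 CPM in HFD+C1 (edgeR adjusted p = 0.487). Among 31 genes of lipid droplets and fatty acid uptake, 3 were higher and 5 lower at that level, with a median of -0.06. Cidea, which promotes droplet fusion, was at 72.2, 28.4 and 67.2 CPM in HFD and 16.2, 5.33 and 25.1 CPM in HFD+C1 (edgeR adjusted p = 0.206), and its relative Cidec at 71.8, 31.7 and 63.9 against 21.8, 6.72 and 36.6 CPM (edgeR adjusted p = 0.412). Replicate 2 was the lowest of its group for both, and Cidec overlapped between groups. Cidea passed without HFD replicate 2. Without HFD replicate 2, 11 of the 31 were lower at an unadjusted p under 0.05 and 3 passed. De novo lipogenesis and triglyceride synthesis (31 genes) had 2 higher and 3 lower and a median of -0.06, and 5 higher and 2 lower without HFD+C1 replicate 2. Mogat1, which makes diacylglycerol, was at 17.1, 7.81 and 19.5 against 7.05, 5.60 and 9.43 CPM (edgeR adjusted p = 0.336, and a call without HFD replicate 2). Glycolysis, gluconeogenesis and glycogen genes (36 tested) had 1 higher and none lower, with a median of 0.01, and 3 higher and 4 lower without HFD replicate 2.

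Cish and Socs2 encode inhibitors that STAT5 induces in response to growth hormone and cytokines. Cish (chr9:107296659-107302784) was at 11.1, 21.9 and 10.5 CPM in HFD and 2.46, 0.403 and 4.77 CPM in HFD+C1, or -2.54 ± 0.49 (SE) on the log2 scale (adjusted p = 0.106, edgeR). Socs2 (chr10:95383903-95417321) was at 3.48, 12.1 and 3.69 against 1.04, 0.897 and 1.61 CPM (-2.46 ± 0.46 on the log2 scale, SE; edgeR adjusted p = 0.0984). All treated libraries lay below all controls for both genes, and the spread within groups was several-fold. Cish passed with no filter on low counts. In the list of growth hormone and STAT5 feedback genes (17 tested) none passed. At an unadjusted p under 0.05 none was higher and 3 were lower, the third being Onecut1, and the median was -0.04. Onecut1, a hepatocyte transcription factor gene, was at 1.89, 13.7 and 1.80 CPM in HFD, so its log2 change of -1.63 came from HFD replicate 2 and was 0.03 without it.

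Genes that male growth hormone pulses keep high in hepatocytes varied several-fold between libraries of 1 group. Of 21 tested male-biased genes none passed, 2 were lower at an unadjusted p under 0.05, and the median was 0.05. Without HFD replicate 2 the median was 0.55, and 14 were higher at that level. Hsd3b5, a male-specific steroid dehydrogenase, was at 14.6, 208 and 13.4 CPM in HFD and 24.6, 159 and 33.8 CPM in HFD+C1. Mup15 was at 83.4, 536 and 67.2 against 35.5, 436 and 156 CPM. These 2 genes were chosen after their values were seen, from those that set HFD replicate 2 furthest from its group, and Mup genes are near-identical copies. For both, replicate 2 was the highest library in either group. Of 13 female-biased genes, 2 were higher and 2 lower at an unadjusted p under 0.05, and 1 and 5 without HFD replicate 2.

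Cholesterol synthesis genes were higher in HFD+C1 on balance, but mainly in replicate 1 and not in replicate 2. Scaled over all 12 libraries, they summed to 1547, 1726 and 1650 CPM in HFD and 2905, 1472 and 1876 CPM in HFD+C1. Of 29 tested, 27 were above 0 and 9 had an unadjusted p under 0.05 in the higher direction, none in the lower, with a median of 0.28. None passed the adjusted threshold. Sqle, the squalene epoxidase, was at 2.31, 3.66 and 2.85 CPM in HFD and 24.1, 5.02 and 6.16 CPM in HFD+C1 (edgeR adjusted p = 0.219). Msmo1, a sterol methyl oxidase, was at 21.9, 45.1 and 27.9 against 118, 37.6 and 51.4 CPM (edgeR adjusted p = 0.408), and Idi1, an isoprenoid isomerase, at 3.55, 9.30 and 3.37 against 18.8, 7.85 and 9.998 CPM (edgeR adjusted p = 0.417). HFD+C1 replicate 1 was the highest library for all 3 genes. Measured against the HFD mean, the list's median was 0.81 in HFD+C1 replicate 1, -0.15 in replicate 2 and 0.21 in replicate 3. Without replicate 1, 16 of 29 were above 0, 2 had an unadjusted p under 0.05 and the median was 0.05. The 9 became 18 when HFD+C1 replicate 2 was dropped, 5 when HFD replicate 1 was and 6 when HFD replicate 3 was.

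Cyp7a1 (chr4:6265612-6275632), the rate-limiting enzyme of bile acid synthesis, had the smallest p of the higher genes. It was at 7.42, 4.11 and 6.54 CPM in HFD and 16.2, 10.7 and 16.9 CPM in HFD+C1, or 1.27 ± 0.22 (SE) on the log2 scale (adjusted p = 0.0925, edgeR). The groups did not overlap, and the gene passed in DESeq2, with no filter, and when replicate 2 of either group was dropped. Of 29 tested genes of bile acid synthesis and transport, none passed, 6 were higher and none lower at an unadjusted p under 0.05 and 8 had groups that did not overlap, all higher, with a median of 0.14. When that HFD library was dropped, 10 were higher and 1 passed, with a median of 0.21. Cyp8b1, which makes cholic acid, was at 364, 269 and 323 CPM in HFD and 487, 376 and 479 CPM in HFD+C1 (edgeR adjusted p = 0.365). Slc27a5, the bile acid CoA ligase, was at 456, 438 and 465 against 672, 525 and 576 CPM, and Nr1h4, the bile acid receptor FXR, at 68.2, 75.5 and 68.1 against 79.6, 95.9 and 96.0 CPM (edgeR adjusted p = 0.417 and 0.439). The 12 pericentral hepatocyte markers, which mark the zone where bile acid synthesis is highest, were all above 0, with 4 at an unadjusted p under 0.05 and a median of 0.25. Those 4 became 7, with 2 calls, when HFD replicate 2 was dropped, 6 when HFD+C1 replicate 1 was and 2 when HFD replicate 1 was. The 9 periportal markers had 6 above 0 and a median of 0.02. Whether the pericentral markers and the bile acid genes are linked was not tested.

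Of 33 genes of acute-phase proteins, which hepatocytes secrete, none passed, 31 were above 0, 10 had an unadjusted p under 0.05 in the higher and 1 in the lower direction, and the median was 0.25. The 10 higher became 17, with 1 call, when HFD replicate 2 was dropped, 15 when HFD+C1 replicate 1 was and 4 when HFD+C1 replicate 2 was. Itih3, an inter-alpha-trypsin inhibitor heavy chain, was at 430, 502 and 451 CPM in HFD and 659, 864 and 615 CPM in HFD+C1 (edgeR adjusted p = 0.206). Fgl1, a secreted fibrinogen-like hepatokine, was at 201, 201 and 216 against 398, 508 and 279 CPM (edgeR adjusted p = 0.0984). HFD+C1 replicate 2 was the highest library for both genes. Enho, which encodes the hepatokine adropin, was at 5.37, 5.70 and 3.69 CPM in HFD and 13.8, 13.2 and 7.30 CPM in HFD+C1 (edgeR adjusted p = 0.111). Fgl1 and Enho passed in DESeq2, with no filter, and when HFD replicate 2 or HFD+C1 replicate 3 was dropped. Itih3 passed in the same settings except the last. Of 43 genes of the urea cycle and amino acid catabolism, 39 were above 0, with 8 higher and 2 lower at an unadjusted p under 0.05 and a median of 0.15. The 8 became 12, with 2 calls, when HFD replicate 2 was dropped, 2 when replicate 3 of either group was and 3 when HFD replicate 1 was. Oat, the ornithine aminotransferase, was at 757, 1132 and 810 against 1672, 1330 and 1253 CPM (edgeR adjusted p = 0.255). Of 31 genes of the unfolded protein response, 1 was higher and 5 lower, with a median of -0.06, and 2 were lower without HFD+C1 replicate 3.

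Among the lists plotted, Kupffer cell markers had the largest share of members at an unadjusted p under 0.05 in the higher direction. All 12 tested were higher in HFD+C1, 11 had an unadjusted p under 0.05 and 11 had groups that did not overlap, with a median log2 change of 0.71, although none passed the adjusted threshold. The 12 together summed to 213 to 279 CPM in HFD (236 ± 37.2, SD, n = 3) and 327 to 436 CPM in HFD+C1 (385 ± 54.7), a ratio of 1.63. In bulk tissue, more cells of a type and more RNA per cell cannot be told apart. Without HFD replicate 2, the highest control, 9 of the 12 passed with a median of 0.97. DESeq2 called 6. Over the 16 other settings the median stayed between 0.60 and 0.97, and 9 to 12 markers had an unadjusted p under 0.05.

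Single Kupffer cell markers were named after their values were seen, except Clec4f, Cd5l and C1qa, which are among the 10 higher genes with the smallest p. Clec4f, a galactose-binding lectin that in mice is restricted to Kupffer cells, was at 62.3, 70.4 and 63.3 CPM in HFD and 99.1, 122 and 94.3 CPM in HFD+C1, or 0.69 ± 0.13 (SE) on the log2 scale (adjusted p = 0.0984, edgeR). Cd5l, a secreted scavenger receptor protein of tissue macrophages, was at 46.1, 64.2 and 55.8 against 113, 106 and 74.2 CPM (edgeR adjusted p = 0.136). C1qa, a chain of complement C1q, was at 22.0, 29.5 and 22.7 against 38.2, 45.4 and 34.2 CPM (edgeR adjusted p = 0.191). No control reached any treated library for these 3 genes, and each passed in DESeq2, with no filter and without HFD replicate 2. Adgre1, the F4/80 antigen, was at 3.32, 5.91 and 3.57 CPM in HFD and 7.27, 9.91 and 8.03 CPM in HFD+C1, and Timd4, a receptor for dying cells on long-resident Kupffer cells, at 2.44, 3.87 and 2.45 against 5.07, 5.38 and 4.20 CPM. The scavenger receptor gene Marco was the exception, at 2.41, 5.49 and 2.45 against 6.08, 5.78 and 2.85 CPM, with overlapping groups (edgeR adjusted p = 0.798). HFD replicate 2 was the highest control for all 6 genes.

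**Figure D3:**
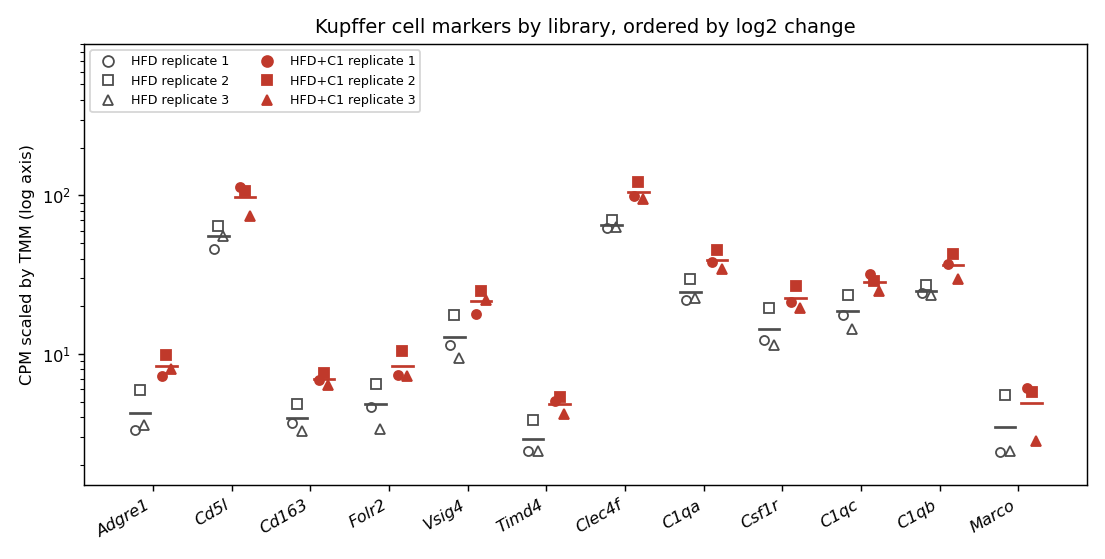
CPM on a log axis of the 12 Kupffer cell markers in each library, ordered by log2 change; open symbols are HFD, filled symbols HFD+C1, shapes the replicate number and bars the group means. Groups do not overlap for 11 of 12, Marco being the exception, and HFD replicate 2 is the highest control throughout.

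Other macrophage genes stood among the 10 higher genes with the smallest p. Ctss, a lysosomal protease, was at 27.5, 32.1 and 29.3 CPM in HFD and 49.3, 49.4 and 38.5 CPM in HFD+C1 (edgeR adjusted p = 0.136). Mpeg1, a pore-forming protein of phagocytes, was at 16.4, 19 and 14.6 against 27, 26.5 and 23.6 CPM, and Axl, a receptor for the bridging ligand Gas6, at 7.20, 8.05 and 6.42 against 10.7, 11.9 and 12.2 CPM (edgeR adjusted p = 0.138 and 0.175). Xlr3a, an X-linked gene, had the largest change of the 10, at 1.37, 0.449 and 1.60 against 4.25, 5.42 and 3.16 CPM. Its log2 change was 1.92 (edgeR adjusted p = 0.0984), and it passed in DESeq2, with no filter and without HFD replicate 2. Of 11 tested markers of monocyte-derived macrophages, 7 were above 0 and 2 had an unadjusted p under 0.05, with a median of 0.10. Their sum of 44.7 to 62.3 CPM in HFD and 68.9 to 85.7 CPM in HFD+C1 came mainly from Lyz2, which Kupffer cells also express. Neutrophil markers summed to at most 3.50 CPM, and T and NK cell markers to at most 4.66 CPM. Of 10 sinusoidal endothelial markers none had an unadjusted p under 0.05, at 115 to 149 CPM in HFD and 134 to 149 CPM in HFD+C1. Of 11 stellate cell markers 1 was lower at that level. Of 28 tested genes of NF-kB and chemokine inflammation, 25 were above 0, 4 were higher at an unadjusted p under 0.05 and none lower, and the median was 0.16, with 1 to 6 higher when single libraries were left out. The interferon list (43 tested) had 3 higher, 1 lower and a median of 0.14, with 9 higher when HFD replicate 2 was dropped and 1 when HFD replicate 1 was. The fibrosis list (35 tested) had 2 higher, 2 lower and a median of 0.05.

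**Figure D4:**
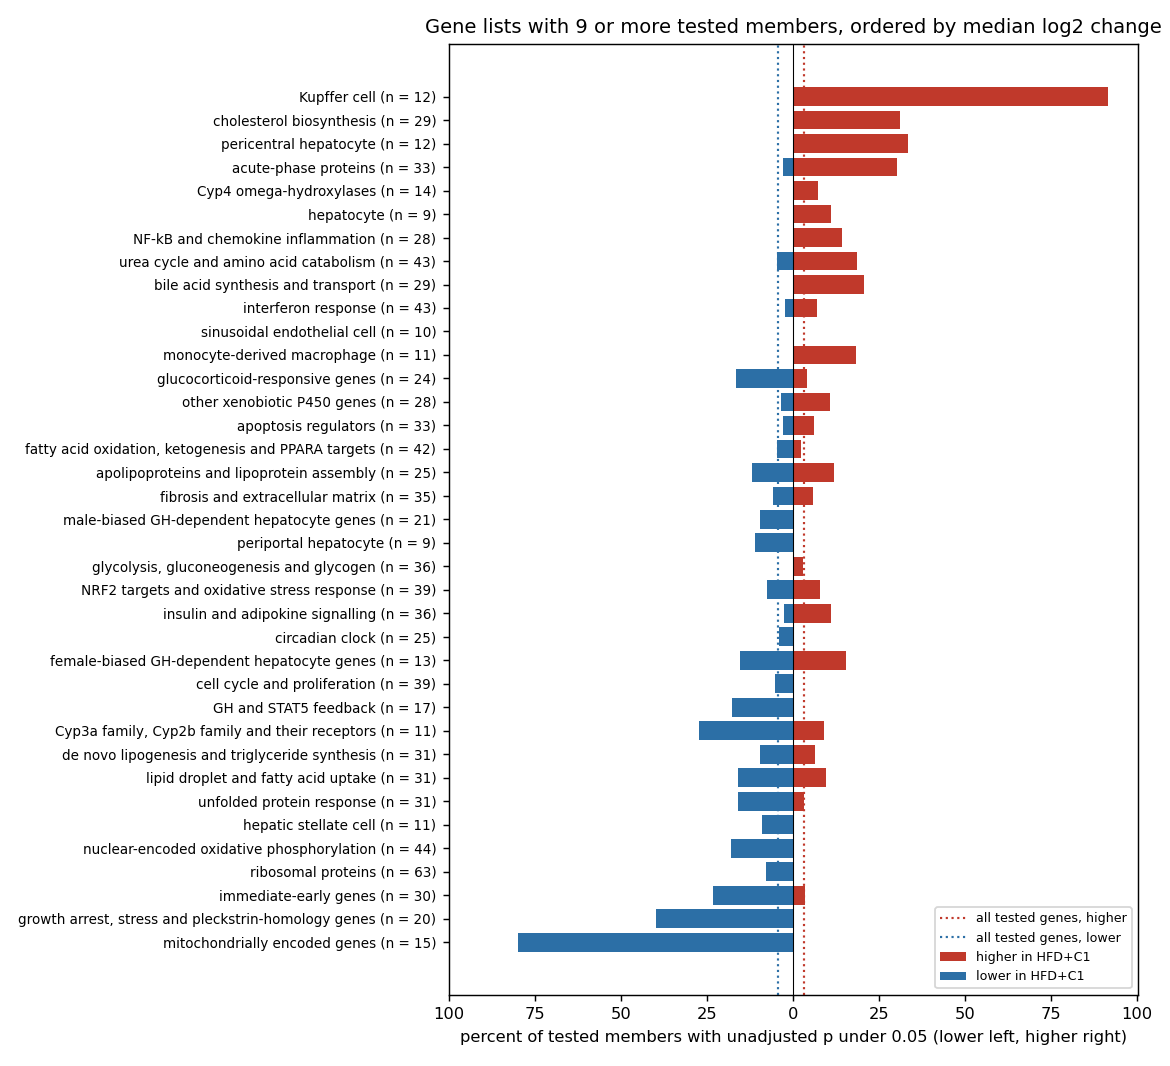
Percent of tested members of each gene list with an unadjusted p under 0.05, lower in HFD+C1 to the left and higher to the right, ordered by median log2 change, with dotted lines at the 4.48% and 3.26% of all tested genes. Kupffer cell markers (11 of 12 higher) and mitochondrially encoded genes (12 of 15 lower) are the longest bars at either end.

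Transcripts of the mitochondrial genome were lower in HFD+C1. All 15 tested were below 0, 12 had an unadjusted p under 0.05, 8 had groups that did not overlap and none passed, with a median of -0.51. Mitochondrial mRNA took 8.71%, 7.72% and 6.98% of reads in HFD and 4.83%, 5.67% and 6.64% in HFD+C1 (exact permutation test, two-sided p = 0.1, the smallest possible). The highest treated library lay just below the lowest control. ATP6, a subunit of ATP synthase, was at 124, 94.7 and 95.5 CPM in HFD and 53.6, 59.5 and 68.8 CPM in HFD+C1 (edgeR adjusted p = 0.0952), and CYTB, a subunit of complex III, at 26967, 19118 and 18679 against 11073, 14886 and 15826 CPM (edgeR adjusted p = 0.334). The annotated pseudogene Gm10925 is a near-identical copy of ATP6, so the split of reads between them is uncertain. More reads were counted on Gm10925, at 865, 647 and 589 CPM in HFD and 279, 367 and 442 CPM in HFD+C1 (edgeR adjusted p = 0.0984). They are not part of the mitochondrial mRNA share above. The 12 members at that level became 5 when HFD replicate 1 was left out and 8 when HFD+C1 replicate 1 was.

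Nuclear genes of related function had medians closer to 0. Of 44 nuclear-encoded oxidative phosphorylation genes, 8 were lower and none higher at an unadjusted p under 0.05, with a median of -0.11. Of 63 ribosomal protein genes 58 were below 0, 5 of them at that level, with a median of -0.12. Without HFD replicate 2 these counts were 17 and 23, with medians of -0.23 and -0.22, and without HFD replicate 1 they were 1 and 1. Malat1, a long RNA retained in the nucleus, was at 412, 333 and 477 CPM in HFD and 278, 249 and 217 CPM in HFD+C1 (edgeR adjusted p = 0.136). Erythroid markers, mainly globin genes, summed to 253 to 381 CPM in HFD and 183 to 298 CPM in HFD+C1. The part of RNA quality or of blood content in these differences was not tested.

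**Figure D5:**
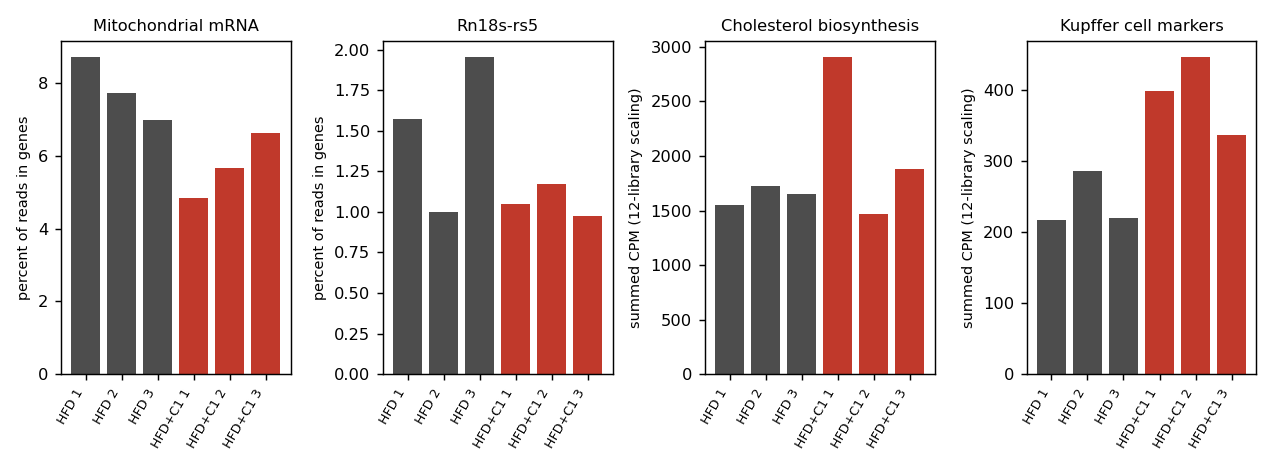
Bars from 0 give, for each library, mitochondrial mRNA and Rn18s-rs5 as percent of reads in genes, and the summed CPM of cholesterol synthesis genes and Kupffer cell markers scaled over all 12 libraries. Between the HFD and HFD+C1 libraries drawn, values do not overlap for mitochondrial mRNA and Kupffer cell markers, and the cholesterol sum is highest in HFD+C1 replicate 1.

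Among the members of the remaining lists, Serpina12 alone passed. Insulin and adipokine signalling (36 tested) had 4 higher (11.1%) and 1 lower, the latter being Serpina12. Apolipoproteins and lipoprotein assembly (25 tested) had 3 in each direction and a median of 0.05. It had 5 lower, 2 of them calls, without HFD replicate 2. NRF2 targets and oxidative stress genes (39 tested) had 3 in each direction and a median of 0.00. When HFD replicate 2 was dropped, 13 of the 39 were lower, 1 of them a call, and the median was -0.09. Leaving out any other library gave 0 to 2 lower. Glucocorticoid-responsive genes (24 tested) had 1 higher and 4 lower (16.7%) and a median of 0.09, and 3 and 2 without HFD replicate 2. Circadian clock genes (25 tested) had none higher and 1 lower, Npas2. Apoptosis regulators (33 tested) had 2 higher and 1 lower, and cell cycle genes (39 tested) none higher and 2 lower.

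C2, at the same dose and duration, allowed a direct comparison with C1 on its 7 called genes and on Cish, Socs2 and Cyp7a1, in a fit of the 6 HFD+C1 and HFD+C2 libraries. None of the 10 differences passed after adjustment over the 13229 genes tested, of which 0 passed in edgeR, 3 in DESeq2, and 608 had an unadjusted p under 0.05. Scaled over all 12 libraries, Phlda1 was at 27, 29.7 and 30.1 CPM under C1 and 19.5, 19.4 and 23.1 CPM under C2, a log2 difference (C2 minus C1) of -0.48 with a 95% interval from -0.81 to -0.16 (edgeR adjusted p = 0.841). Gadd45g was at 3.11, 3.71 and 3.30 against 4.16, 3.49 and 4.11 CPM, a difference of 0.22 (-0.24 to 0.67). Adgrv1 differed by 0.07 (-0.72 to 0.85) and Cyp7a1 by 0.33 (-0.51 to 1.17). The interval of Phlda1 excludes 0, and those of Gadd45g, Adgrv1 and Cyp7a1 hold it. Unlike the adjusted p, these intervals and those below are not adjusted for the number of genes tested. Those of Gadd45g, Adgrv1 and Cyp7a1 reach up to 0.67, 0.85 and 1.17, so the compounds are not shown to act alike.

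Cyp3a11 was at 317, 387 and 510 CPM under C1 and 1201, 962 and 527 CPM under C2, a difference of 1.15 (0.44 to 1.86, edgeR adjusted p = 0.841). All C2 libraries lay above all C1 libraries, the closest pair being nearly equal. Chow-fed livers, whose libraries had 35.7% to 58.15% of reads not assigned to a gene, held 2722, 4220 and 4677 CPM of Cyp3a11. Socs2 was at 1.06, 0.916 and 1.65 against 3.86, 2.12 and 6.46 CPM, a difference of 1.79 (0.82 to 2.75). Cish differed by -1.12 (-2.61 to 0.36) and Serpina12 by 0.87 (-0.72 to 2.46). For Mir6236 the difference of 2.13 came from HFD+C2 replicate 1, at 418 CPM against 51.6 and 42.2 CPM in the other C2 libraries, and the same library held 314 CPM of Gm15564 against 48.3 and 36.4. In that library 9.89% of reads in genes were from Rn18s-rs5, against at most 1.17% in the other libraries of both compound groups. Reads not assigned to a gene made up 47.1% of it, against 27.4% and 27.9% in the other C2 libraries. Mitochondrial mRNA took 1.74% of its reads in genes, against 7.10% and 6.78%. The same library was the highest C2 library for Cyp3a11 and for the Kupffer cell marker sum given next. The part of these shares in the comparison of C2 with C1 was not tested. Kupffer cell markers summed to 398, 446 and 337 CPM under C1 and 535, 358 and 271 CPM under C2, with 217, 286 and 219 CPM in HFD and 346, 276 and 238 CPM in chow-fed livers. The C2 and C1 ranges overlapped.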

How the data were processed

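The authors deposited tables of read counts per gene, 50559 gene symbols in each. They are called normalized by name, but hold whole numbers with differing totals, so they were used as raw counts. The submitters' processing notes name Trimmomatic 0.39, STAR 2.7, DESeq2 and the build mm10; annotation and strand use are not given in the sources used here. The 4 rows that name no gene were left out of library sizes and tests. They held 27.3% to 32.9% of reads in HFD and HFD+C1 libraries, up to 47.1% in HFD+C2 and up to 58.15% in chow-fed libraries. Testing was limited to genes whose mean over the 6 libraries was 10 counts or more, with edgeR 4.0.16 (R 4.3.3; TMM scaling, quasi-likelihood test, Benjamini-Hochberg adjustment). CPM are TMM-scaled within the comparison unless stated. The 95% intervals are t intervals with the degrees of freedom implied by each gene's statistic and p. The test was run on simulated data first. Members, gene lists and tests were chosen with earlier results of these data known.

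Named were every called gene, the 10 genes per direction with the smallest p among those averaging 50 counts or more and groups that did not overlap, up to 4 members per list with an unadjusted p under 0.05, every tested Cyp4 gene, and Cish; the text gives values for most of them. Alternatives were other scalings, DESeq2 1.42.0, limma 3.58.1, robust dispersions, other filters, a replicate block, a fit of all 12 libraries and each library left out. Leaving ribosomal and mitochondrial rows out before scaling was added after the data were seen. Gene positions and promoter and miRNA sequences are from RefSeq (GRCm38.p6), in which 48908 symbols matched. Reads are not independent molecules, so floors hold for counting error alone. The edgeR p-values set a group difference against the spread between these libraries, estimated with information shared across genes.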

Additional observations from a re-analysis of the deposited data

How the results depend on the processing

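Phlda1, Gadd45g and the other 5 called genes kept their direction in all settings in which they were tested. The number of genes called for HFD+C1 against HFD, 7 as reported, was 7 with median-ratio or upper-quartile scaling and with limma-trend, 9 with robust dispersions and 5 with a mean of at least 50 counts. It was 77 with DESeq2, 206 with no filter, 36 with the replicate number as a block, 0 in the edgeR fit of all 12 libraries (313 at an unadjusted p under 0.05) and 2 with ribosomal and mitochondrial rows left out. With 1 library left out it ranged from 2 to 102. Each of these counts from a fit with calls holds Phlda1 and Gadd45g. For HFD+C2 against HFD+C1 the count of 0 became 3 with DESeq2 and 162 with no filter, and 0 to 1 with 1 library left out. The cause of these shifts was not tested.

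Same-numbered HFD and HFD+C1 libraries deviated from their group means with correlations of 0.04, 0.17 and -0.21. Not every library correlated best with its own number. The labels do not say whether equal numbers pair the samples, and 3 libraries per group are too few for these correlations to decide it. The block raised the calls to 36, all 7 reported ones included. Among the added calls were Cyp7a1, Socs2, Cish, Cidea, Cidec, Mogat1, Foxq1, Enho, Fgl1, Apoa4, ATP6 and 4 Kupffer cell markers (Adgre1, C1qa, Cd5l and Clec4f). The log2 change of Cyp4a12b turned to 0.18 with limma-trend and 0.14 with the block. Leaving out 1 library at a time moved the log2 change of Cyp4a12b from -0.51 to 1.00, of Cyp4a12a from -0.66 to 0.44, of Onecut1 from -2.71 to 0.0323, of Cyp4f16 from -0.0592 to 0.63 and of Cyp4f39 from -0.0697 to 0.66. For Cyp4f15 the range was -0.0242 to 0.22, for Cyp4f17 -0.20 to 0.00903 and for Cyp4f13 -0.061 to 0.042. Among the single named genes, 142 values over all settings passed the threshold where the reported one did not, 35 lost a call, and 47 list medians moved by more than 1 SD of the treated libraries. Genes near 3 counts per library have no usable precision at this depth.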
